A study of Canis lupus familiaris with 4 samples.

Results

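FOS, EGR1 and RGS2 are represented by 5 of the 13824 clones on a spotted cDNA array, found by their gene symbol in the platform annotation, and they were chosen by their large ratios on all 4 arrays and by how differently these behaved when the dyes were exchanged. These ratios are therefore given as a description, without a test. Gene expression was read in MDCK cells, an epithelial line from dog kidney, transfected with E22A or E22B, which were taken from knowledge of the study to be the A and B isoforms of E2-2 (a class I basic helix-loop-helix protein, gene TCF4). Each transfectant was co-hybridised with MDCK-CMV control cells on 2 arrays, and all cells were kept in the same serum-containing medium. The series concerns the control of E-cadherin, and of the passage from epithelial to mesenchymal state, by such factors. The design text speaks of the transfectants as clones. Each is 1 biological sample, every array carried control RNA, and every SD below is over spots or arrays and so measures technical spread. Whether the cultures still expressed epithelial markers could not be read from ratios, which hold no level.

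Immediate early genes are switched on within minutes of a stimulus by factors already present in the cell, before any new protein is made. Growth factors and serum act on them largely through the RAS and ERK kinase cascade, which ends at serum response factor and its ETS partners on their promoters, and their mRNAs are short-lived. FOS is a leucine zipper protein that pairs with JUN proteins to form AP-1. EGR1 is a zinc finger transcription factor. RGS2 is a regulator of G protein signalling that speeds the shut-off of Gq and is itself induced by many stimuli.

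The values are ratios of the dyes of each array, taken as log2, and the sources used here do not state which dye is the numerator, so the sign of a ratio does not by itself say which cells had more of the transcript. On E22A array 1 the title names Cy5 for the transfectant while the channel labels put E22A in Cy3; its title also writes EE2A, and it counts as E22A because the text on its first channel names those cells. On E22A array 2 and E22B array 1 the titles name Cy3, and on E22B array 2 the title and the channel labels both name Cy5 (its control is labelled MDCK-CONTROL and was taken as MDCK-CMV). One comparison is free of this doubt. Within an array, whether a pair of genes lie on the same side of 0 is the same under every reading of the dyes. CDH1 (E-cadherin) stood at -0.89 and -1.13 in the E22A hybridisations and at -1.08 and 0.78 in those of E22B, and it serves as the landmark below. That value rests on the CDH1 clone measured on all 4 arrays, and another CDH1 clone had the same sign on the 3 arrays that measured it (-3.36, -3.71 and 0.91).

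The first FOS clone lay on the CDH1 side of 0 on all 4 arrays. This clone (spots 14327 and 14328) stood at -1.47 ± 0.025 on E22A array 1 and -2.43 ± 0.035 on E22A array 2 (log2, SD, n = 2 spots). On the E22B arrays it stood at -3.11 ± 0.0095 and 3.30 ± 0.057. The dyes thus differed by 2.77-fold and 5.39-fold with E22A and by 8.62-fold and 9.83-fold with E22B. By size this clone ranked 107 of 11742 clones on E22A array 1, 13 of 11417 on E22A array 2, 20 of 11790 on E22B array 1 and 34 of 11387 on E22B array 2. Its duplicate spots differed far less than its arrays did.

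The other FOS clone (spots 18535 and 18536), a different sequence of the same gene, showed almost none of this and did not keep to the CDH1 side. Its ratios were -0.25 ± 0.012 and -0.27 ± 0.015 with E22A and 0.068 ± 0.044 on E22B array 1, and it had no value on E22B array 2. On E22B array 1 the clones of this gene therefore differed by a ratio of 8.62-fold against 1.05-fold. Disagreement between clones of a gene was common on these arrays, but the count below does not ask for a gap as large as that of FOS. Of the genes carried by several sequences with at least 1 of them at 2-fold or more, 32 of 52 on E22A array 1, 35 of 44 on E22A array 2 and 51 of 72 on E22B array 1 also had a clone under 0.5 in size. All further statements on FOS rest on the first clone alone.

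EGR1, carried by 1 clone (spots 13431 and 13432), lay on the CDH1 side of 0 on the second array of each transfectant and on the other side on the first arrays. It stood at 1.36 ± 0.0063 and -3.24 ± 0.0056 on the E22A arrays, and no clone on E22A array 2 had a lower ratio. On the E22B arrays it stood at 1.00 ± 0.019 and 3.53 ± 0.11. The ratio was much farther from 0 on the second arrays, at 9.45-fold and 11.5-fold, than on the first, at 2.57-fold and 2.00-fold. On E22B array 1 its spots fell on both sides of the 2-fold line, at 0.99 and 1.01.

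RGS2 showed the opposite arrangement. It lay with CDH1 on the first array of each transfectant and against it on the second arrays. The annotation gives the same sequence for both of its clones, so they are a single sequence printed at 2 positions and not separate evidence. The first position (spots 653 and 654) stood at -1.45 ± 0.011 and 2.02 ± 0.062 with E22A and at -2.43 ± 0.024 and -1.10 ± 0.026 with E22B. At the second position (spots 10663 and 10664) the ratios were -1.32 ± 0.025, 1.35 ± 0.0027, -2.31 ± 0.15 and -1.03 ± 0.00068 in the same order. Both positions had the same sign on every array, and each was at 2-fold or more on all 4.

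The RGS2 positions differed by 0.12, 0.67, 0.12 and 0.076 on the 4 arrays. The 0.67 on E22A array 2 exceeded 97.9% of 1030 pairs of positions holding a shared sequence, whose median difference was 0.11. Among the 24 pairs with a position at 2-fold or more the median was 0.51, and 8 of them differed by more than RGS2. On the other arrays such pairs had a median difference of 0.50 (E22A array 1), 0.67 (E22B array 1) and 0.75 (E22B array 2). On E22B array 2 that is not far below the RGS2 ratios of -1.10 and -1.03, although the RGS2 positions themselves differed little there.

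**Figure D1:**
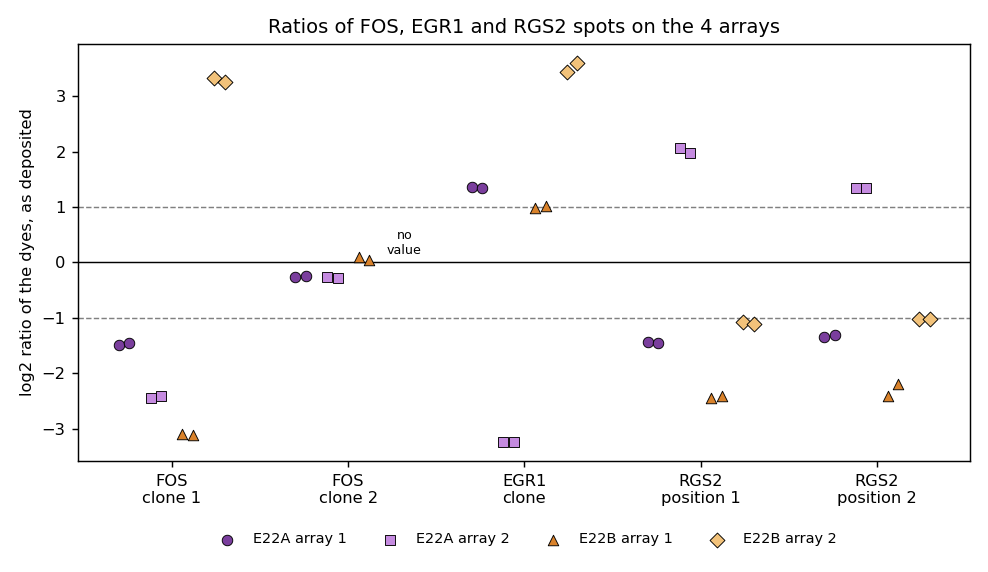
Log2 ratio of the dyes, as deposited, for each spot of the FOS, EGR1 and RGS2 clones on the 4 arrays. Each point is 1 spot and the dashed lines mark 2-fold. FOS clone 2 stays between -0.28 and 0.10 while every spot of the first FOS clone and of RGS2 lies beyond 2-fold, and EGR1 and RGS2 have opposite signs on all 4 arrays.

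For the comparisons across genes, each array was centred on its median and clones of a gene with a value on all 4 arrays were averaged, which gave 8657 features (FOS by its first clone only, RGS2 by both positions). At 2-fold or more in size stood 2.1% and 2.09% of features in the E22A hybridisations and 2.52% and 3.04% in those of E22B. FOS, EGR1 and RGS2 were among the 18 features (0.208%) at that size on all 4 arrays, which is how they had been chosen. Of these 18, 16 had the same deposited sign on both E22A arrays and opposite signs on the E22B arrays. FOS was 1 of the 16, so this behaviour was not particular to it. EGR1 and RGS2 were the other 2. EGR1 was the last of the 18, with a smallest ratio of 1.00 on the log2 scale, and CTH at 0.98 fell just outside. With the arrays scaled to an equal spread EGR1 came to 0.98 on E22B array 1 and the second RGS2 position to -0.95 on E22B array 2, both below 2-fold.

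On arrays with exchanged dyes a difference between the RNAs reverses the sign of a plain dye ratio, whereas a preference of a probe for one dye does not. The share of either in the values below was not tested. The values of a transfectant's arrays were therefore split into a part that keeps its sign (their mean) and a part that turns (array 2 minus array 1, divided by 2). The genes were chosen for large ratios that behaved differently on dye exchange. Their places among all features, here and in the paragraphs that follow, describe that choice. On the E22B arrays, for which title and channel labels are free of conflict, FOS was almost entirely a turning ratio, with 3.20 turned against 0.095 kept. Only 6 of 8657 features had a larger turned part. EGR1 and RGS2 were mainly the reverse there, with 2.26 kept against 1.26 turned for EGR1 and -1.72 kept against 0.65 turned for RGS2.

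The kept parts of EGR1 and RGS2 were large on the E22B arrays, as follows from how the genes were chosen. There 99% of features had a kept part under 0.89 in size. The turned parts of EGR1 and RGS2 were also sizeable against a median of 0.15. That of EGR1 lay just under the 1.32 below which 99% of features fell. Among the 65 features that reached 2-fold on each E22B array (0.751%), 55 changed sign as deposited (0.635%) and 10 did not (0.116%). FOS belonged to the 55, and EGR1 and RGS2 belonged to the 10.

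On the E22A arrays the larger part was the other one for all 3 genes. The channel labels put E22A in Cy3 on both of these arrays, which would be no exchange of dyes. By those labels a difference between the RNAs keeps its sign, so what the parts stand for in E22A is not settled. The sign relation also differed over all features, with r = 0.371 between the E22A arrays and -0.407 between those of E22B. FOS kept its sign on the E22A arrays, at -1.95 kept against -0.48 turned. EGR1 turned, at -2.30 against -0.94 kept, and so did RGS2, at 1.53 turned against 0.15 kept. Of 35 features at 2-fold or more on both E22A arrays (0.404%), 33 had the same deposited sign on both (0.381%) and only EGR1 and RGS2 had opposite signs (0.0231%). CDH1 and FN1 (fibronectin, a matrix protein typical of mesenchymal cells) divided in the same way as FOS in both transfectants, although FN1 had the opposite sign to FOS on all 4 arrays. CDH1 was -1.01 kept against -0.12 turned in E22A and -0.15 kept against 0.93 turned in E22B, and for FN1 the parts were 2.29 and -0.40 in E22A and 0.35 and -1.73 in E22B.

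**Figure D2:**
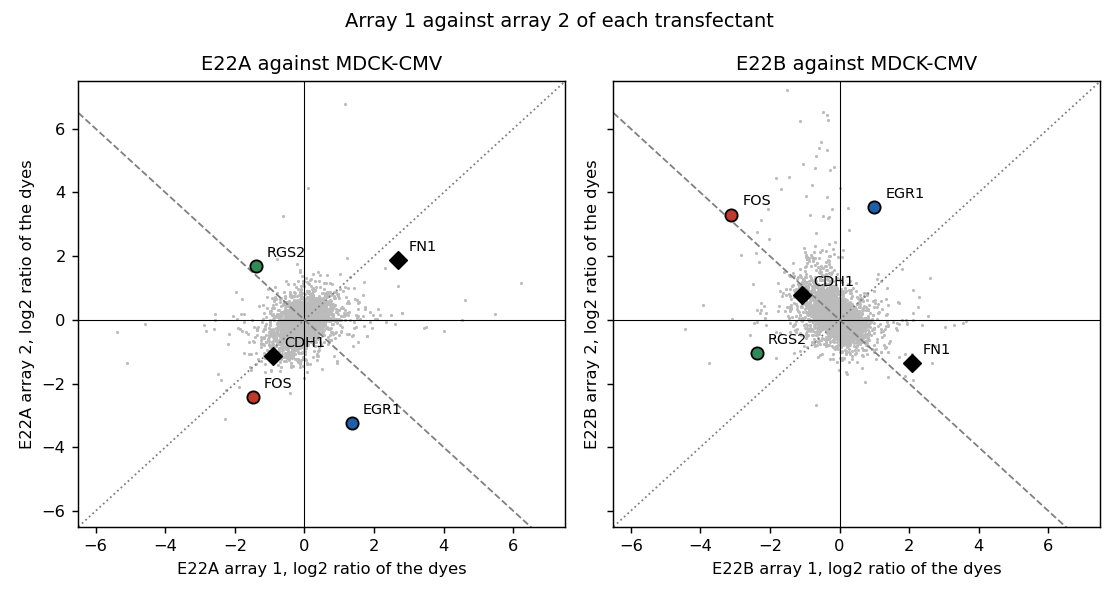
Log2 ratios of array 1 (horizontal) and array 2 (vertical) for the 8657 features in grey, with FOS, EGR1 and RGS2 as circles and CDH1 and FN1 as diamonds. The dotted line is equal values and the dashed line equal size with opposite sign. FOS lies near the dashed line on the E22B arrays and on the same-sign side on the E22A arrays. EGR1 and RGS2 lie on the same-sign side on the E22B arrays. On the E22A arrays they lie on the opposite-sign side, RGS2 near the dashed line and EGR1 away from it.

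**Figure D3:**
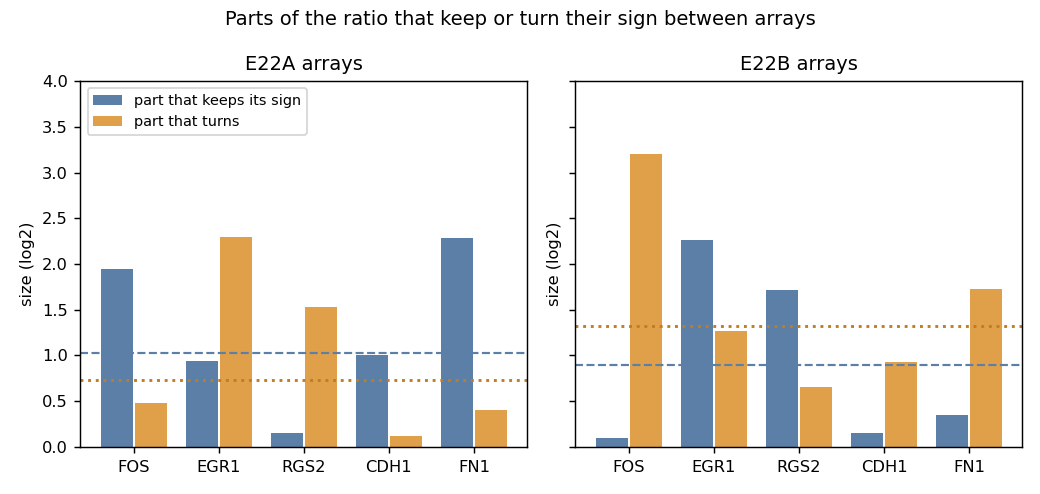
Size (log2) of the part of the ratio that keeps its sign and of the part that turns between the arrays of a transfectant. Dashed and dotted lines give the size below which 99% of the 8657 features lie, for kept and turned parts. The larger part of FOS is the kept one on the E22A arrays (1.95) and the turned one on the E22B arrays (3.20), and the reverse holds for EGR1 and RGS2.

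The sense of the E22A values depends on which label is followed. The titles describe an exchange of dyes, and under them the E22A ratios of FOS fall on opposite sides (-1.47 and 2.43), while EGR1 (1.36 and 3.24) and RGS2 (-1.39 and -1.68) each stay on 1 side. The channel labels put E22A in Cy3 on both arrays, and under them FOS is on the same side of the control on all 4 arrays, while EGR1 and RGS2 are split on both transfectants. Reading the values as channel 2 over channel 1, or turning the sign of the E22A pair under the titles, gave FOS on 1 side of 3 arrays. Array by array these readings assign the same sign as each other, so they count as a single alternative. None of the readings placed EGR1 or RGS2 on 1 side of all arrays, because their E22B ratios did not reverse with the dye. As deposited, the arrays of E22A correlated at r = 0.371 across 8657 features and those of E22B at r = -0.407. Genes are not independent replicates, so these are given without a p. With the titles followed, the E22A correlation has the opposite sign, below the limit of -0.3 taken here for a settled direction, so no direction is stated for E22A.

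The genes whose ratios over the 4 arrays were most like those of each gene were taken by the cosine of the centred values, among 34 other genes at 2-fold or more on at least 3 arrays. Most like FOS were CD151 (0.99), CDC6 (0.99), DSP (0.98), TFF1 (0.98) and TSNAX (0.97). CD151 is a tetraspanin of adhesion complexes, CDC6 a replication licensing factor, DSP the desmosomal plakin desmoplakin, and TFF1 a secreted trefoil peptide. Closest to EGR1 stood TUBB3 (0.92), a neuronal-type beta-tubulin, which gave 0.92, -1.29, 1.19 and 1.23 over the arrays. S1PR1 (0.74), TSNAX (0.67), P2RX4 (0.67) and CDC6 (0.66) followed at a distance. RGS2 was most like HS3ST1 (0.94), a heparan sulfate sulfotransferase, and TSPAN13 (0.94), another tetraspanin. HS3ST1 gave -0.79, 1.92, -1.32 and -1.05, and TSPAN13 gave -1.97, 0.89, -1.83 and -1.19. After these came F3 (0.80), the tissue factor of coagulation, LRATD2 (0.53) and ASNS (0.35). Between the members themselves the cosine was 0.53 for FOS and EGR1, 0.10 for FOS and RGS2 and -0.78 for EGR1 and RGS2. A cosine over 4 arrays is a coarse measure, and all 4 share the control RNA.

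The AP-1 partners and relatives of FOS had smaller ratios than FOS. Of 10 AP-1 genes listed, 6 were measured on all 4 arrays, and none of their values, each the mean of the clones complete on all 4 arrays, reached 2-fold. JUN, the main dimer partner of FOS, gave -0.08 and 0.13 with E22A and -0.48 and 0.28 with E22B. FOSB, the closest relative of FOS, gave 0.26, 0.21, 0.12 and 0.26, the mean of a pair of clones that lay on opposite sides of 0 on 3 arrays. JUNB (0.12, 0.83, 0.14 and -0.21) and JUND (-0.07, 0.68, 0.08 and -0.12) were highest on E22A array 2. FOSL2 gave -0.02, 0.19, -0.46 and 0.22. ATF3, a stress-induced member of the wider family, had the signs of FOS on all 4 arrays at smaller size, -0.53, -0.66, -0.21 and 0.42. That value rests on 1 of its 3 clones, and an incomplete clone stood at -0.74 and -1.08 on the E22A arrays.

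Of the EGR list, 2 of 6 genes were measured. EGR3, a relative that binds the same DNA element as EGR1, gave 1.04, 0.11, 0.26 and 0.95. Its ratios were positive on every array, so it had the sign of EGR1 on 3 arrays and not on E22A array 2. WT1, a related zinc finger protein, gave 0.13, 0.13, -0.26 and 0.17.

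Among the other immediate early genes, 27 of 50 listed were measured on all 4 arrays. Their medians were -0.12 and -0.17 with E22A and -0.13 and 0.16 with E22B, beside medians within 0.01 of 0 over all features. None was at 2-fold or more on both arrays of a transfectant. The genes whose value was at 2-fold on any array are named here and in the next 2 paragraphs, a choice made after the values were seen. PLK2, a polo-like kinase, gave -1.06, -0.62, -1.53 and 0.77, with the signs of FOS. SGK1, a serum and glucocorticoid regulated kinase, gave -0.85, 1.03, -1.72 and -0.40, with the signs of RGS2 on all 4 arrays. DUSP6, a phosphatase of ERK, gave 0.46, -0.76, -0.38 and 1.69. PTGS2, the inducible cyclooxygenase, lacked a value on E22B array 2 and gave -0.18, 1.02 and -0.88, again with the signs of RGS2. PHLDA1, a growth factor induced gene, repeated the disagreement between clones seen for FOS. Its first clone gave -1.86, -0.93, -1.65 and 1.23, and its other 2 clones stayed between -0.19 and 0.09. In the 6 lists 6 genes under 2-fold by their value had a clone beyond it on some array: ATF3, PHLDA1, CCN1 (-1.82 on E22B array 2), HBEGF (-1.03 on E22B array 1), RGS1 and PRKCA (1.08 on E22B array 1). On the E22B arrays 18 of the 27 changed sign (66.7%), beside 70.4% of all features. On the E22A arrays 18 of the 27 kept their sign, beside 5848 of 8657 features. FOS thus behaved as most features did on each pair of arrays. Matches of all signs with FOS, EGR1 or RGS2, here and in the other lists, were not counted over all features.

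Of the ERK pathway list, 16 of 36 genes were measured. SPRY2, a feedback inhibitor of receptor kinase signalling, gave 1.79, -0.52, 1.67 and 0.55, with the signs of EGR1 on all 4 arrays. MAPK3, which is ERK1, gave -0.48, 1.11, -0.07 and -0.60, with the signs of RGS2 on all 4 arrays. SPRED2, another inhibitor of the cascade, gave 0.29, 0.13, -0.26 and 1.44. SPRY1, unmeasured on the E22A arrays, gave -1.25 and 0.88 on those of E22B. SRF, the serum response factor itself, stood between -0.07 and 0.20, and its partner ELK1 between -0.03 and 0.25. The ELK1 values are means of clones on opposite sides of 0 on the E22A arrays (-0.15 and -0.25 against 0.08 and 0.47).

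The relatives of RGS2 stood nearer 0. Of 20 genes in the RGS list, 7 were measured on all 4 arrays, with values from -0.53 to 0.50, and none reached 2-fold. RGS1 owes its -0.37 on E22B array 1 to clones on opposite sides of 0, at -1.15 and 0.41. Among G proteins and phospholipase C, 15 of 32 were measured. GNAQ, the Gq subunit on which RGS2 acts, gave 0.14, 0.30, 0.12 and -0.01. GNG11, a gamma subunit, gave 1.71 and 2.36 on array 1 of each transfectant but -0.19 and -0.15 on array 2. ITPR1, the inositol trisphosphate receptor, was at 1.13 on E22B array 2 only.

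**Figure D4:**
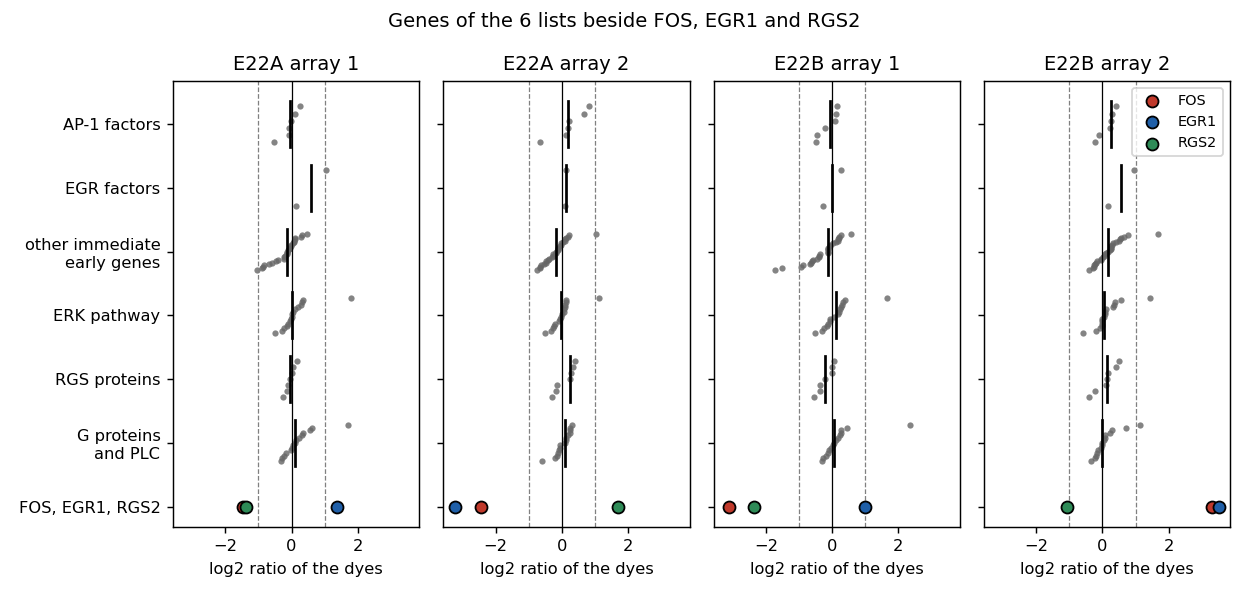
Log2 ratio of the dyes for the 73 genes of the 6 lists measured on all 4 arrays (grey points, 1 per gene, with the list's median as a bar) and for FOS, EGR1 and RGS2 in colour. Dashed lines mark 2-fold. No listed gene is beyond them on both arrays of a transfectant, and the medians lie between -0.22 and 0.59.

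At 2-fold or more on at least 1 array stood 9 of the 73 genes in the 6 lists (12.3%), beside 6.33% of all features. Of the same genes, 0 of 73 reached 2-fold on both arrays of E22A, where 0.404% of all features did, and 0 of 73 on both arrays of E22B, where 0.751% did. A share of that size gives less than 1 gene among 73, so the counts of 0 do not set the lists apart from the array. A pooled test of both transfectants against the control (limma, Benjamini-Hochberg adjustment), which treats them as replicates of E2-2 transfection, called 0 of the 73 by the titles, with 0% of features called, and 0 by the channel labels, with 0.0116% called. At an unadjusted p under 0.05 stood 4 of the 73 by the titles (3 positive, 1 negative), beside 283 of 8657 features. By the channel labels there were 14 (10 positive, 4 negative), beside 1158 of 8657. The 27 other immediate early genes held 2 of the 4 by the titles (2 positive, 0 negative). By the channel labels they held 8 of the 14 (8 positive, 0 negative). The smallest adjusted p of a listed gene in that reading was 0.0840, for PLK2 (0.84 in E22A and 1.15 in E22B, positive on 4 of 4 arrays). By the channel labels CDH1 was positive too (1.01 in E22A and 0.93 in E22B), and FN1 was negative (-2.28 and -1.72). Positive there means the CDH1 side of 0, and does not say which cells had more of the transcript. By the titles CDH1 lay on opposite sides on the E22A arrays, so a sign has no such landmark. With each clone as its own feature, the first PHLDA1 clone passed by the channel labels (limma, 1.40 in E22A and 1.44 in E22B, positive on 4 of 4 arrays, adjusted p = 0.0459). With 2 samples this test has little power. It also treats the transfectants as independent although they share the control RNA, so its p-values may be too small.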

How the data were processed

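The authors deposited 1 value per spot and array, taken here as log2 ratios of the dyes; base 2 is an assumption from convention, and folds rest on it. The image analysis, background correction, normalisation and numerator dye were not given in the sources used. Spots with a value numbered 22360 to 23136 per array, and medians lay within 0.01 of 0. Scanner intensities were not used here, so signal over background is unknown, and precision is limited by the number of arrays. Gene names are those of the platform annotation, whose gene IDs are human; 3 of 3 member symbols occur in the dog RefSeq gene table. Hybridisation was across species.

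Spots with consecutive odd and even numbers were averaged as a clone. Members are printed as deposited. Features for comparisons were centred, complete on all 4 arrays and averaged by symbol. Transfectants, each the mean of its turned arrays, were tested against 0 with limma 3.58.1 (lmFit, eBayes) in R 4.3.3, at an adjusted p under 0.05. The fit was tested on simulated data in which both arrays of a transfectant held the same values after turning. That simulation does not show how the test performs on arrays that differ as these do. FOS, EGR1 and RGS2 are given no test. By rule the text names every clone of these genes, all measured AP-1 and EGR genes, and other listed genes at 2-fold on both arrays of a transfectant (none). It also names the 5 genes most like each member, and CDH1 and FN1. Outside that rule it names listed genes with a value or a clone at 2-fold on any array, chosen after the values were seen. SRF, ELK1, GNAQ and CTH were named in addition. Members and lists were chosen with earlier results of these data known. Alternatives were centring, scaling, clone averaging, completeness, the fold, each spot, each array and 4 readings of the dyes, a pair of which give the same signs.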

Additional observations from a re-analysis of the deposited data

Results flagged for a closer look

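Some named genes had both E22A arrays on one side of the control and both E22B arrays on the other. These differences were not tested, and FOS, EGR1 and RGS2 were not among them. By the titles, JUN stood at -0.11 in E22A and 0.38 in E22B, a difference of -0.49. FOSL2 stood at -0.10 and 0.34, a difference of -0.44. GNG11 stood at 0.95 and -1.26, a difference of 2.21. Its large ratios were those of array 1 (1.71 with E22A and 2.36 with E22B), beside -0.19 and -0.15 on array 2. By the channel labels GNG11 was negative in both transfectants, at -0.76 in E22A and -1.26 in E22B. By the channel labels, WT1 stood at -0.13 and 0.22, a difference of -0.35. SPRED2 stood at -0.21 and 0.85, a difference of -1.06. None of these genes met the condition in both readings. The direction of E22A is not settled, so each difference holds only in the reading named.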

How the results depend on the processing

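No member ratio changed sign under centring, scaling or the use of a single spot; scaling shifted them by up to 0.26, and for each gene and transfectant the larger of the kept and turned parts stayed the larger. FOS clone 2 alone gave an E22A kept part of -0.26. The pooled test by the titles called 0 features under every alternative tried, with 141 to 947 at an unadjusted p under 0.05 (limma). By the channel labels it called 0 without centring, with incomplete features or as channel 2 over channel 1, 4 with scaling, 21 with each clone separate, and 0 to 31 without 1 array, the 31 without E22B array 2. One of the 21 was a clone of a listed gene (PHLDA1, adjusted p = 0.0459), and no other of these calls was a listed gene. At 1.5-fold, 3 listed genes passed on both E22A arrays (CCN1, PLK2, SGK1) and 1 on both E22B arrays (PLK2), beside 193 and 306 features; with each clone separate, the same PHLDA1 clone was the 1 that passed in E22B. On a single array, 2 to 4 listed genes and 181 to 182 features reached 2-fold in E22A, and 3 to 4 listed genes and 218 to 263 features in E22B.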
